A study of Cricetulus griseus with 24 samples.

Results

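Oxidative phosphorylation is the pathway by which mitochondria turn electrons from nutrients into ATP. Complex I, NADH dehydrogenase, and complex II, succinate dehydrogenase, pass electrons into the respiratory chain. ATP synthase uses the proton gradient that the chain builds to make ATP. Most subunits are encoded in the nucleus and imported, and mammalian cell cultures are known to shift between glycolysis and respiration as they pass from rapid growth to rest.

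The genes described here are those whose symbols begin with Nduf, Uqcr, Atp5 or Cox4 to Cox8, or are Sdha, Sdhb, Sdhc or Sdhd, with a mean of at least 1 CPM (CPM, counts scaled to library size with TMM factors) over 20 cultures. Of the 28037 genes in the deposited count table, 65 matched by symbol and all 65 passed the CPM limit, the closest to it being Ndufa4l2 at 1.68 CPM and Atp5sl at 2.37 CPM. The 65 genes comprised 7 core and 29 accessory subunits of complex I, 7 complex I assembly factors (Ndufaf1 to Ndufaf7), 4 subunits of complex II, 14 subunits of ATP synthase, Ndufa4 and its paralogue Ndufa4l2, and 2 genes with ATP5 symbols, Atp5s and Atp5sl, that are not subunits of ATP synthase. Subunits of complexes III and IV under the Uqcr and Cox symbols and the 13 subunits encoded in mitochondrial DNA were not analysed here.

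RNA-seq libraries came from suspension cultures of 3 Chinese hamster ovary (CHO) lines. A0 is an antibody-producing CHO DG44 clone that carries its IgG heavy and light chains on separate plasmids with selection markers, and A1 is the progeny of A0 after gene amplification by stepwise methotrexate selection. CHO-S, used as the non-producing control, is a separate CHO line, and its library titles carry the letters NDST. Exponential phase had 4 cultures of A0 (8 libraries, summed by culture number), 3 of A1 and 3 of CHO-S, and stationary phase had 4, 3 and 3. Each line is a single line, so a difference between lines cannot be assigned to amplification, to antibody production or to any other single feature of it. The p-values measure the spread between these cultures, which the sources used here do not tie to separate thaws or clones.

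Libraries held 1038026 to 14652646 counts on genes. CHO-S stationary culture 1 had the lowest total and stood apart from the other CHO-S stationary cultures, with 17 of the 65 genes at least 2-fold from the mean of the other cultures, of which 15 were lower. Of its reads 32.8% fell in no annotated gene, against 11.9% to 18.4% in the other libraries, so it differed in more than depth. In that culture 28 of the 65 genes had fewer than 50 counts and 6 had fewer than 10, so the counts of genes called that use it are given with and without it. Fits without it keep only 2 CHO-S stationary cultures, so their p-values rest on the spread between few cultures. In A0 at exponential phase, culture 1 was the highest of 4 for 49 of the 65 genes, and its second library, labelled RLT, lay at a median of 0.31 log2 units above its first library over these genes. Of 10 measured markers of leukocytes, endothelium, adipocytes, muscle and liver, 7 stayed under 1 CPM in every culture. The summed level of the 10 markers was 14.6 to 19.2 CPM in the exponential groups and 25.5 to 77.3 CPM in the stationary groups. Of these, Cd68, a lysosomal protein of macrophages, was at 2.29 to 3.80 CPM in exponential and 8.26 to 65.3 CPM in stationary cultures. Acta1, the muscle marker, was at 9.83 to 15.3 CPM over all cultures and made up most of the exponential sums. Pecam1, of endothelium, reached 7.18 CPM in stationary CHO-S. The part of these genes in the results below was not tested. In bulk RNA, fewer cells and less RNA per cell cannot be told apart.

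The summed level of each complex was lower at stationary than at exponential phase in A0 and A1 for the complex I core, complex II and ATP synthase. The 14 ATP synthase genes together were at 3072 to 3802 CPM in the A0 exponential cultures and 2356 to 2517 CPM in the A0 stationary cultures. In A1 the sums were 3498 to 3592 CPM and 2647 to 2852 CPM. In CHO-S they were 3390 to 3525 CPM and 1871 to 2779 CPM, or 2760 to 2779 CPM without culture 1. In none of the 3 lines did the exponential and stationary sums of ATP synthase overlap. The 7 core subunits of complex I, which carry the electron path from NADH to quinone, summed to 1125 to 1394 CPM and 883 to 982 CPM in A0, to 1127 to 1138 CPM and 927 to 1002 CPM in A1, and to 780 to 803 CPM and 476 to 697 CPM in CHO-S, or 689 to 697 CPM at stationary phase without culture 1. Every A0 and A1 culture lay above every CHO-S culture of the same phase for the complex I core. Complex II sums were 1236 to 1501 CPM and 1065 to 1169 CPM in A0, 1329 to 1345 CPM and 1072 to 1119 CPM in A1, and 1076 to 1091 CPM and 817 to 975 CPM in CHO-S, or 969 to 975 CPM without culture 1. The 29 accessory subunits of complex I overlapped between the phases in A0, at 1987 to 2735 CPM and 2013 to 2099 CPM. The 7 assembly factors went the other way in A0, at 118 to 138 CPM in exponential and 150 to 175 CPM in stationary cultures. In A1 their sums were 149 to 158 CPM and 149 to 152 CPM. These sums are descriptions without a test.

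**Figure D1:**
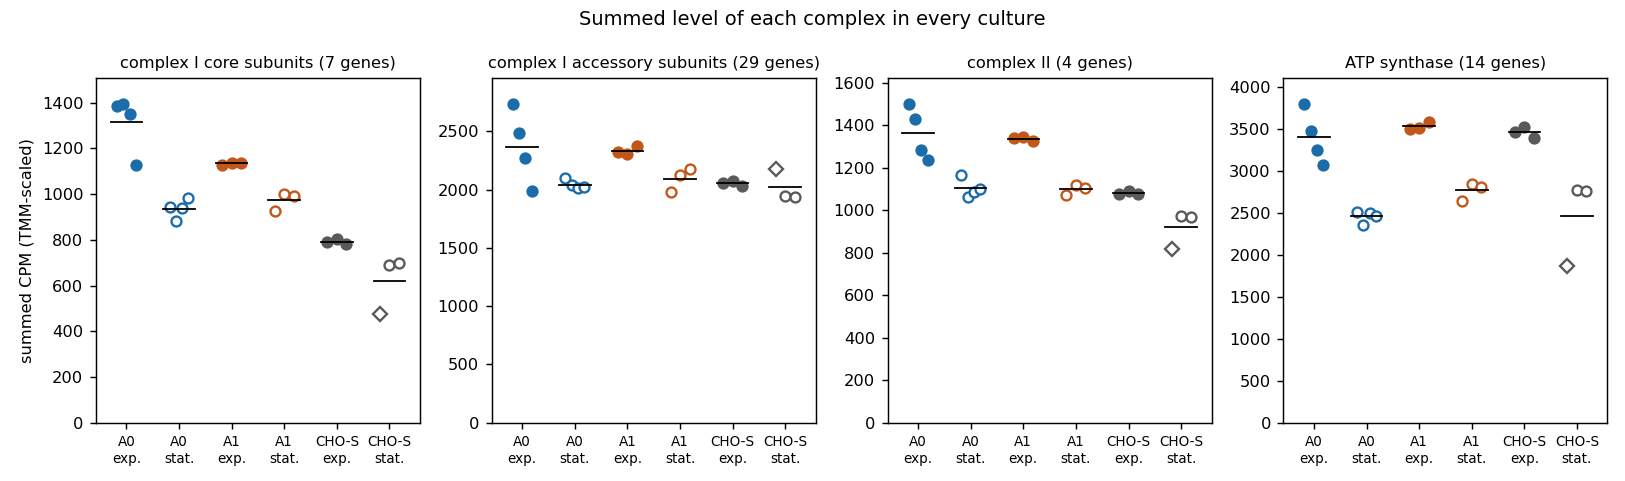
Summed TMM-scaled CPM of the 7 core and 29 accessory subunits of complex I, the 4 subunits of complex II and the 14 subunits of ATP synthase, on the y axis, for each of the 20 cultures, with the group on the x axis. Filled points are exponential and open points stationary cultures, the bar is the group mean, and the diamond is CHO-S stationary culture 1. ATP synthase was at 3072 to 3802 CPM in exponential and 2356 to 2517 CPM in stationary A0 cultures.

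The comparison of stationary with exponential phase asked how the pathway differs between growth and rest within each line. In A0, 24 of the 65 genes fell and 8 rose (edgeR's quasi-likelihood test, adjusted p under 0.05), against 20.1% of all tested genes that fell and 17.7% that rose (37.7% called in all). Among tested genes with a mean of at least 1 CPM, 29.5% fell and 52.5% were called in all, beside 49.2% of the 65. With the culture number as a block, 40 genes were called, of which 13 rose and 27 fell, against 42.7% of all tested genes called (20% that rose and 22.7% that fell). With the first library of each A0 culture alone, 22 fell and 17 rose, against 18.9% and 19.2% of all tested genes. Without A0 exponential culture 1, 22 fell and 13 rose, against 19.3% and 16.7%. With A0 cultures 3 and 4 alone, 11 fell and 7 rose, against 14.6% and 13.1%. The split between falls and rises thus depended on the A0 libraries and cultures used. With all A0 libraries and cultures, the median log2 fold change of the 65 genes was -0.17. That of all tested genes was 0.0013, and that of tested genes with at least 1 CPM was -0.06. In A1, 25 genes fell and 3 rose, against 17.8% of all tested genes that fell and 15.6% that rose (33.4% called in all). Among genes with at least 1 CPM 25.3% fell and 46% were called in all, beside 43.1% of the 65. The median of the 65 genes in A1 was -0.13, and that of tested genes with at least 1 CPM was -0.01. In CHO-S with all 3 stationary cultures, 3 genes fell and 2 rose, against 6.48% of all tested genes that fell and 6.81% that rose (13.3% called in all, and 17.2% among genes with at least 1 CPM). Without culture 1, 23 fell and 9 rose, against 24.7% of all tested genes that fell and 23.1% that rose. Called in all were 49.2% of the 65 genes, close to the 47.7% of all tested genes. The share among genes with at least 1 CPM is not given for this fit.

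The core of complex I fell in part of its members. In A0, 5 of the 7 core genes fell and none rose, and in A1 4 fell and none rose, beside 20.1% and 17.8% of all tested genes that fell. In CHO-S none of the 7 was called with all cultures, and 4 fell and none rose without culture 1, beside 6.48% and 24.7% of all tested genes that fell. Ndufs1, which carries iron-sulfur clusters of the electron path, was at 150, 153, 161 and 153 CPM in the exponential A0 cultures and 101, 91.8, 97.3 and 106 CPM in the stationary ones. In A1 it was at 118, 120 and 124 CPM and then 83.9, 89.7 and 84.0 CPM. The stationary cultures lay below all exponential cultures of the same line, with log2 fold changes of -0.65 ± 0.09 (SE) in A0 (adjusted p = 2e-05, edgeR) and -0.47 ± 0.06 in A1 (adjusted p = 2.7e-07, edgeR). Ndufs8, another iron-sulfur subunit, fell by 0.75 ± 0.12 on the log2 scale in A0 (adjusted p = 0.00015, edgeR) and by 0.45 ± 0.06 in A1 (adjusted p = 7.2e-07, edgeR). Ndufv1, which binds NADH and flavin mononucleotide, went from 199 to 224 CPM in exponential A0 cultures to 152 to 174 CPM in stationary ones, and from 220 to 227 CPM to 180 to 190 CPM in A1. Its log2 fold change was -0.39 ± 0.09 in A0 (adjusted p = 0.0025, edgeR) and -0.25 ± 0.06 in A1 (adjusted p = 0.00049, edgeR). In CHO-S without culture 1, Ndufs1, Ndufs8 and Ndufv1 fell by 0.32, 0.25 and 0.40 on the log2 scale.

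All 4 complex II genes were called in A0 and in A1, beside 37.7% and 33.4% of all tested genes. Among genes with at least 1 CPM these shares were 52.5% and 46%. Sdhd, a membrane anchor, was at 395, 367, 325 and 335 CPM in exponential A0 cultures and 245, 219, 228 and 232 CPM in stationary ones. In A1 it was at 362, 373 and 361 CPM and then 244, 279 and 252 CPM. The phases did not overlap in either line, with log2 fold changes of -0.63 ± 0.09 in A0 (adjusted p = 5.3e-05, edgeR) and -0.48 ± 0.06 in A1 (adjusted p = 5.3e-08, edgeR). In CHO-S the log2 fold change of Sdhd was -0.46 ± 0.12 (adjusted p = 0.049, edgeR), and -0.40 ± 0.05 without culture 1 (adjusted p = 3.6e-12, edgeR). Sdha, the flavoprotein that oxidizes succinate, fell by 0.33 ± 0.10 in A0 (adjusted p = 0.014, edgeR) and by 0.20 ± 0.05 in A1 (adjusted p = 0.0028, edgeR), and the A0 call was lost without A0 exponential culture 2 (-0.29) or with A0 cultures 3 and 4 alone (-0.19). Sdhc, the other anchor, fell by 0.39 ± 0.10 in A0 (adjusted p = 0.0054, edgeR) and by 0.21 ± 0.06 in A1 (adjusted p = 0.0044, edgeR), and the A0 call was lost with A0 cultures 3 and 4 alone (-0.21). Sdhb, the iron-sulfur subunit, was at 177, 160, 157 and 185 CPM in exponential A0 cultures and 232, 203, 204 and 198 CPM in stationary ones, a log2 fold change of 0.29 ± 0.09 (adjusted p = 0.022, edgeR). In A1 it was at 233, 220 and 238 CPM and then 206, 203 and 203 CPM, a change of -0.16 ± 0.06 (adjusted p = 0.029, edgeR). Sdhb thus rose in A0 and fell in A1, and the difference between the 2 phase effects was -0.49 ± 0.12 (adjusted p = 0.011, edgeR interaction). The separate calls were fragile. That in A0 was lost without A0 exponential culture 2 (0.26) or 3 (0.25) or stationary culture 1 (0.24) and with A0 cultures 3 and 4 alone (0.24), and that in A1 without exponential culture 1 (-0.15) or 3 (-0.13) or stationary culture 2 (-0.15) or 3 (-0.16). The interaction call was kept with every culture left out in turn, but it was lost in 1 fit over all 6 groups (-0.48).

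Among the 14 ATP synthase genes, 7 fell in A0 and none rose, beside 20.1% and 17.7% of all tested genes. In A1 9 fell and 1 rose, beside 17.8% and 15.6%. In CHO-S none of the 14 was called with all cultures, beside 13.3% of all tested genes. Without culture 1, 9 fell and 2 rose, beside 24.7% of all tested genes that fell and 23.1% that rose. Atp5a1 and Atp5b encode the catalytic head. Atp5b was at 1165, 1169, 1080 and 897 CPM in exponential A0 cultures and 743, 668, 649 and 652 CPM in stationary ones. In A1 it was at 1134, 1165 and 1142 CPM and then 783, 885 and 856 CPM. In CHO-S it was at 993, 1044 and 993 CPM and then 233, 657 and 677 CPM, the lowest being culture 1. No stationary culture of any of the 3 lines reached an exponential culture of its own line, and the log2 fold changes were -0.68 ± 0.10 in A0 (adjusted p = 7.1e-05, edgeR), -0.43 ± 0.05 in A1 (adjusted p = 8.1e-08, edgeR) and, without culture 1, -0.60 ± 0.04 in CHO-S (adjusted p = 6.2e-24, edgeR). With all 3 CHO-S stationary cultures the value was -0.94 ± 0.35 (adjusted p = 0.12, edgeR). Atp5a1 fell by 0.49 ± 0.08 in A0 (adjusted p = 0.0002, edgeR), by 0.52 ± 0.05 in A1 (adjusted p = 6.7e-09, edgeR) and by 0.39 ± 0.04 in CHO-S without culture 1 (adjusted p = 2.9e-14, edgeR). Of the peripheral stalk, which holds the head still, Atp5f1 fell by 0.74 ± 0.13 in A0 (adjusted p = 0.00032, edgeR) and by 0.57 ± 0.06 in A1 (adjusted p = 1e-09, edgeR). Atp5i, a small subunit of the membrane part, was at 107, 98.2, 83.9 and 65.9 CPM in exponential A0 cultures and 42.2 to 50.6 CPM in stationary ones. It fell by 0.94 ± 0.13 in A0 (adjusted p = 3.3e-05, edgeR), the largest fall of the 65 genes there, and by 0.50 ± 0.08 in A1 (adjusted p = 4.5e-06, edgeR). In CHO-S Atp5i was at 68.2 to 75.0 CPM in exponential and 67.3 to 71.8 CPM in stationary cultures, and these overlapped.

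Atp5g1, Atp5g2 and Atp5g3 are 3 genes for the same c subunit of the rotor ring, and they differed from each other between the phases. Atp5g3 was at 312, 287, 390 and 339 CPM in exponential A0 cultures and 140, 138, 229 and 214 CPM in stationary ones, with stationary cultures 1 and 2 well below cultures 3 and 4. It fell by 0.89 ± 0.16 in A0 (adjusted p = 0.00025, edgeR) and by 0.44 ± 0.06 in A1 (adjusted p = 2.7e-07, edgeR), from 238 to 256 CPM to 173 to 184 CPM. Atp5g2 was at 225, 213 and 231 CPM in exponential A1 cultures and 262, 260 and 263 CPM in stationary ones, and it rose by 0.25 ± 0.06 there (adjusted p = 0.00058, edgeR). In A0 Atp5g2 overlapped between the phases, at 195 to 294 CPM and 239 to 271 CPM. In CHO-S without culture 1 it fell by 0.25 ± 0.05 (adjusted p = 8.6e-06, edgeR), and culture 1 had 22.7 CPM against 187 and 171 CPM in the others. Atp5g1 fell by 0.29 ± 0.06 in A1 (adjusted p = 0.00049, edgeR) and overlapped between the phases in A0, at 79.8 to 101 CPM and 73.5 to 95.4 CPM.

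The accessory subunits of complex I, which surround the core and steady its assembly, were mixed. Of 29, 9 fell and 4 rose in A0, beside 20.1% and 17.7% of all tested genes. In A1 7 fell and 1 rose, beside 17.8% and 15.6%. In CHO-S 2 fell and 1 rose with all cultures, beside 6.48% and 6.81%. Without culture 1, 6 fell and 5 rose, beside 24.7% and 23.1%. Called in all were 44.8% in A0 and 27.6% in A1, below the 52.5% and 46% of genes with at least 1 CPM. Ndufa9, beside the quinone channel, was at 84.3, 63.8, 57 and 56.6 CPM in exponential A0 cultures and 40.3, 38.5, 38.1 and 36.6 CPM in stationary ones. It was at 74.1 to 77.0 CPM and 45.8 to 51.7 CPM in A1. The phases did not overlap, and Ndufa9 fell by 0.78 ± 0.12 in A0 (adjusted p = 9.3e-05, edgeR), by 0.60 ± 0.07 in A1 (adjusted p = 2.9e-08, edgeR) and by 0.79 ± 0.18 in CHO-S (adjusted p = 0.03, edgeR), or 0.63 ± 0.06 without culture 1. Among the genes that rose in A0, Ndufc1 and Ndufc2 belong to the membrane arm. Ndufc1 was at 16, 13.5, 11.2 and 14.5 CPM in exponential and 25.3, 21.3, 21.4 and 21.8 CPM in stationary A0 cultures, with a log2 fold change of 0.69 ± 0.13 (adjusted p = 0.00036, edgeR). In CHO-S it was at 23.9 to 26.8 CPM and then 60.9, 37.4 and 39.0 CPM, and it rose by 0.75 ± 0.19 (adjusted p = 0.042, edgeR), or 0.58 ± 0.08 without culture 1. In A1 the phases of Ndufc1 overlapped, at 21.2 to 22.4 CPM and 21.8 to 24.2 CPM. Ndufc2 and Ndufa11 rose in A0 by 0.43 ± 0.12 and 0.42 ± 0.10 on the log2 scale (adjusted p = 0.0088 and 0.0043, edgeR). In A1 the accessory subunit that rose was Ndufa1, by 0.40 ± 0.09 (adjusted p = 0.0012, edgeR).

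Complex I assembly factors help build the complex and are not part of it. In A0 2 of the 7 rose and none fell, beside 17.7% and 20.1% of all tested genes. Ndufaf2, a chaperone of late assembly, was at 20.8, 20.3, 18.6 and 26.3 CPM in exponential and 33.4, 35.0, 34.9 and 32.6 CPM in stationary A0 cultures, a log2 fold change of 0.65 ± 0.12 (adjusted p = 0.00029, edgeR). In A1 it was at 25.9, 28.2 and 25.7 CPM and then 29.1, 25.9 and 25.2 CPM, and the phases overlapped. In A1 Ndufaf7, a methyltransferase of early complex I assembly, rose by 0.21 ± 0.08 (adjusted p = 0.034, edgeR), and Ndufaf5, which modifies Ndufs7, fell by 0.53 ± 0.15 (adjusted p = 0.0071, edgeR). The Ndufaf7 call was lost under 8 of 12 alternatives, among them leaving out any A1 culture but exponential culture 3 (0.18 to 0.22). The Ndufaf5 call was lost without exponential culture 2 (-0.42) or stationary culture 3 (-0.43). Atp5s, listed in RefSeq as Dmac2l, was a low gene at 2.75 to 3.77 CPM in exponential and 6.74 to 7.35 CPM in stationary A0 cultures. It rose by 1.15 ± 0.16 in A0 (adjusted p = 3.2e-05, edgeR), the largest rise of the 65 genes there, and by 1.31 ± 0.28 in CHO-S (adjusted p = 0.025, edgeR), or 1.24 ± 0.20 without culture 1. In A1 the phases overlapped, at 2.73 to 3.28 CPM and 2.75 to 4.08 CPM. The CHO-S calls of Atp5s, Ndufa9, Ndufc1 and Sdhd were each lost on leaving out any CHO-S culture other than stationary culture 1 (1.10 to 1.53, -0.88 to -0.76, 0.75 to 0.91 and -0.50 to -0.44).

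Set side by side, the phase effects of A0 and A1 had the same sign for 49 of the 65 genes, and for 71.9% of all genes tested in both lines. Both lines called 19 genes, which is 59.4% of those called in A0 and 67.9% of those called in A1, and over all tested genes the shares were 54.7% and 67.6%, so the sharing was close to that of all genes. Of the 19, 17 fell in both lines, Ndufaf7 rose in both and Sdhb moved in opposite directions. Across the 65 genes Pearson's r between the 2 sets of log2 fold changes was 0.64, a description across genes that share their libraries. With CHO-S stationary culture 1 left out, 12 genes fell in all 3 lines, among them Ndufs1, Ndufs8 and Ndufv1 of the complex I core, the accessory subunits Ndufa9 and Ndufa10, Sdhd, and Atp5a1, Atp5b, Atp5f1, Atp5g3 and Atp5h of ATP synthase. No gene rose in all 3. With A0 cultures 3 and 4 alone, the A0 calls of Ndufv1 (-0.33), Ndufc2 (0.41), Ndufa11 (0.33) and Ndufaf2 (0.59) were lost.

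**Figure D2:**
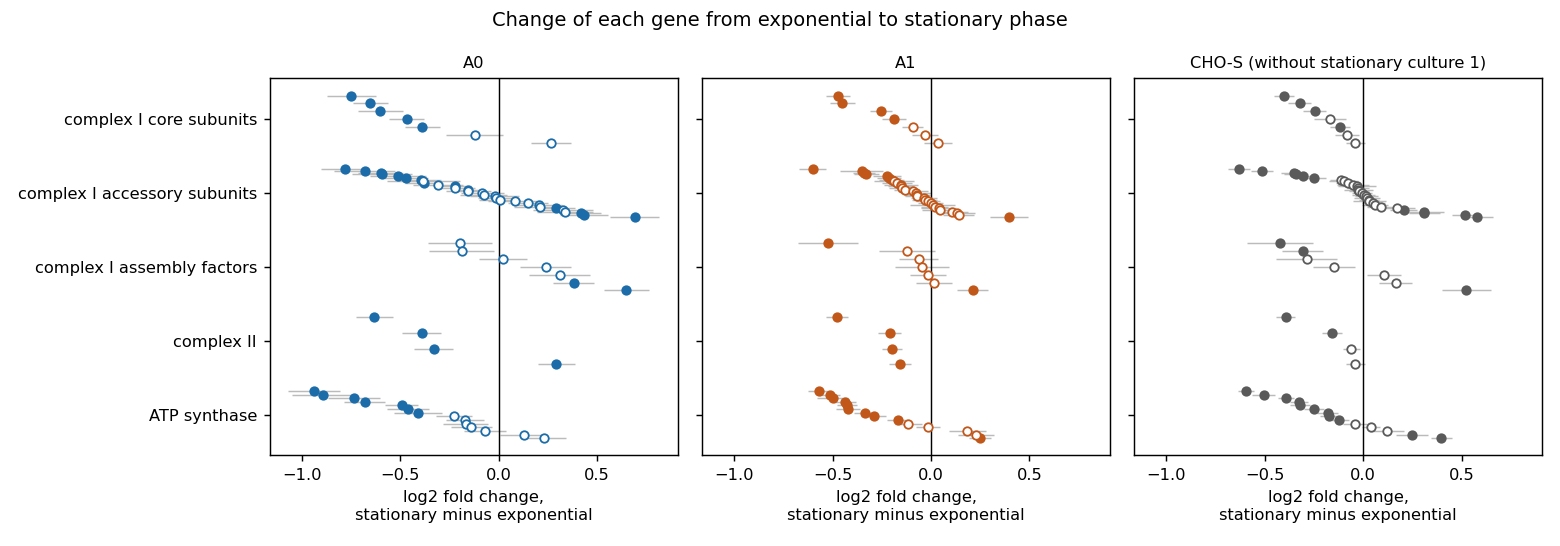
Log2 fold change from exponential to stationary phase (x axis, positive when higher at stationary phase) of each gene, 1 point per gene with its standard error, in rows by complex, for A0, A1 and CHO-S without stationary culture 1. Filled points passed adjusted p under 0.05 (edgeR): 7 of the 14 ATP synthase genes fell in A0 and 9 in A1, and 5 and 4 of the 7 complex I core genes. Of all tested genes 20.1% fell in A0 and 17.8% in A1.

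The comparison of A1 with A0 asked how the amplified line differs from its parent. At exponential phase, 15 of the 65 genes were higher in A1 and 7 lower (edgeR, adjusted p under 0.05), against 25.9% of all tested genes called, 12% higher and 13.8% lower. Among genes with at least 1 CPM 36.2% were called, beside 33.8% of the 65 genes. The median log2 fold change was 0.09 for the 65 genes, -0.04 for all tested genes and -0.01 for tested genes with at least 1 CPM. The split rested on which A0 cultures were used. With A0 cultures 3 and 4 alone, 24 genes were higher and 3 lower, against 11.6% and 14.2% of all tested genes. With A0 cultures 1 and 2 alone the split turned, with 16 higher and 20 lower, against 17.8% and 19.8%. With the first library of each A0 culture 23 were higher and 7 lower, against 15.2% and 14.7%. Left out singly, A1 culture 3 lowered the count called from 22 to 14, and the share of all tested genes from 25.9% to 16%. At stationary phase 18 genes were higher in A1 and 8 lower, against 33.7% of all tested genes called, 16% higher and 17.7% lower. Among genes with at least 1 CPM 45.1% were called, beside 40% of the 65. The median was 0.05 for the 65 genes, -0.0021 for all tested genes and 0.0038 for tested genes with at least 1 CPM. The shares of the 65 genes called were thus near the background in both phases.

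By complex, 10 of the 36 complex I subunits were higher in A1 and 6 lower at exponential phase, and 10 higher and 3 lower at stationary phase. ATP synthase had 3 higher and 1 lower, and then 6 higher and 2 lower, of 14. Complex II had 1 higher at exponential phase, and 1 higher and 1 lower at stationary phase. Over all tested genes 12% were higher and 13.8% lower at exponential phase, and 16% and 17.7% at stationary phase. Among genes with at least 1 CPM 36.2% and 45.1% were called in the 2 phases. The shares called were 44.4% and 36.1% for complex I subunits and 28.6% and 57.1% for ATP synthase. Ndufs3, a core subunit of the arm that projects into the matrix, was at 65.1, 55.3, 49.6 and 60.0 CPM in A0 and 85.9, 97.7 and 92.0 CPM in A1 at exponential phase. At stationary phase it was at 65.3 to 75.0 CPM in A0 and 84.9 to 90.5 CPM in A1. All A1 cultures lay above all A0 cultures in both phases, by 0.67 ± 0.10 (adjusted p = 0.00024, edgeR) and 0.34 ± 0.07 on the log2 scale (adjusted p = 0.0025, edgeR). Ndufs1 was lower in A1, at 118 to 124 CPM against 150 to 161 CPM at exponential phase, a difference of -0.35 ± 0.08 (adjusted p = 0.0054, edgeR). At stationary phase it was at 83.9 to 89.7 CPM against 91.8 to 106 CPM, a difference of -0.21 ± 0.07 (adjusted p = 0.036, edgeR), and that call was lost under 9 of 15 alternatives, including on leaving out any culture but A0 culture 2 (-0.24 to -0.18). Ndufv2, which lies beside Ndufv1 at the start of the electron path, was at 592, 619, 583 and 438 CPM in A0 and 382, 386 and 381 CPM in A1 at exponential phase, so that even A0 culture 4 lay above A1. The difference was -0.55 ± 0.11 (adjusted p = 0.0022, edgeR), and at stationary phase the lines overlapped, at 341 to 408 CPM and 328 to 367 CPM.

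In complex II, Sdhb was at 157 to 185 CPM in A0 and 220 to 238 CPM in A1 at exponential phase, a difference of 0.44 ± 0.09 (adjusted p = 0.0023, edgeR), and the lines overlapped at stationary phase. Sdhc was higher in A1 by 0.22 ± 0.07 (adjusted p = 0.026, edgeR) and Sdha lower by 0.18 ± 0.06 on the log2 scale (adjusted p = 0.037, edgeR) at stationary phase. The Sdha call was lost on leaving out any of the 7 cultures (-0.19 to -0.16), and the Sdhc call without A0 culture 2 (0.19) or A1 culture 2 (0.21) or 3 (0.18).

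In ATP synthase, Atp5g1 had the largest excess in A1 among the genes called at both phases. It was at 101, 83.1, 79.8 and 80.7 CPM in A0 and 151, 144 and 157 CPM in A1 at exponential phase, and at 95.4, 81.7, 80.8 and 73.5 CPM and 111, 125 and 128 CPM at stationary phase. The lines did not overlap in either phase, and the differences were 0.81 ± 0.10 (adjusted p = 3.7e-05, edgeR) and 0.54 ± 0.09 (adjusted p = 0.00033, edgeR). Its paralogue Atp5g3 was lower in A1 at exponential phase, at 238 to 256 CPM against 287 to 390 CPM (-0.44 ± 0.10, adjusted p = 0.0058, edgeR), and overlapped at stationary phase. Atp5e, the epsilon subunit of the central stalk, was at 20.4 to 27.6 CPM in A0 and 29.4 to 37.9 CPM in A1 at exponential phase, and at 25.7 to 29.3 CPM and 36.2 to 41.4 CPM at stationary phase. It was higher in A1 by 0.55 ± 0.13 (adjusted p = 0.0047, edgeR) and 0.52 ± 0.10 (adjusted p = 0.00075, edgeR), and leaving out A1 culture 3 ended the call at exponential phase (0.46). Atp5a1 was higher in A1 in both phases, by 0.36 ± 0.08 (adjusted p = 0.0047, edgeR) and 0.29 ± 0.06 (adjusted p = 0.0024, edgeR). Atp5b was at 649 to 743 CPM in A0 and 783 to 885 CPM in A1 at stationary phase (0.30 ± 0.07, adjusted p = 0.004, edgeR), and overlapped at exponential phase. Atp5o, which joins the peripheral stalk to the head, was lower in A1 at stationary phase by 0.30 ± 0.07 on the log2 scale (adjusted p = 0.0029, edgeR).

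Among accessory subunits, Ndufa2 was higher in A1 in both phases, at 31.4 to 35.6 CPM against 18.1 to 24.1 CPM and at 28.0 to 31.0 CPM against 19.1 to 24.1 CPM, with differences of 0.68 ± 0.12 (adjusted p = 0.00058, edgeR) and 0.51 ± 0.11 (adjusted p = 0.0019, edgeR). Ndufa6 was at 209, 192, 201 and 109 CPM in A0 and 105, 104 and 103 CPM in A1 at exponential phase. A0 culture 4 lay next to the A1 cultures and far from the other A0 cultures, and the difference over all 7 was -0.77 ± 0.17 (adjusted p = 0.0034, edgeR). Ndufb3 was lower in A1 by 0.33 ± 0.11 on the log2 scale (adjusted p = 0.031, edgeR), a call lost under 7 of 16 alternatives, including without A0 culture 1 (-0.24), A0 culture 2 (-0.33) or any A1 culture (-0.34 to -0.33). Ndufc1 was higher in A1 at exponential phase by 0.65 ± 0.13 (adjusted p = 0.0016, edgeR). At stationary phase Ndufb11 and Ndufa5 were higher by 0.45 ± 0.08 and 0.39 ± 0.09 (adjusted p = 0.00064 and 0.0028, edgeR), and Ndufb4 and Ndufa10 were lower by 0.35 ± 0.08 and 0.29 ± 0.07 on the log2 scale (adjusted p = 0.0034 and 0.0038, edgeR). Ndufa4, first described in complex I and now placed in complex IV, was higher in A1 at stationary phase by 0.26 ± 0.07 (adjusted p = 0.01, edgeR), a call lost without A1 culture 3 (0.21).

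The exponential and stationary comparisons of A1 with A0 share no library. Same-numbered A0 cultures deviated together between the phases, however, so these comparisons may not be independent. They had the same sign for 43 of the 65 genes, and for 67.5% of all genes tested in both phases. Both phases called 10 genes, 45.5% of those called at exponential and 38.5% of those called at stationary phase, beside 60% and 47.7% over all tested genes. All 10 had the same direction in both, as did 94.2% of all genes called in both. Ndufs3, Ndufa2, Ndufb5, Ndufb6, Atp5a1, Atp5e and Atp5g1 were higher in A1, and Ndufs1, Ndufa10 and Ndufb4 were lower. Pearson's r across the 65 genes was 0.41, again a description across genes.

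**Figure D3:**
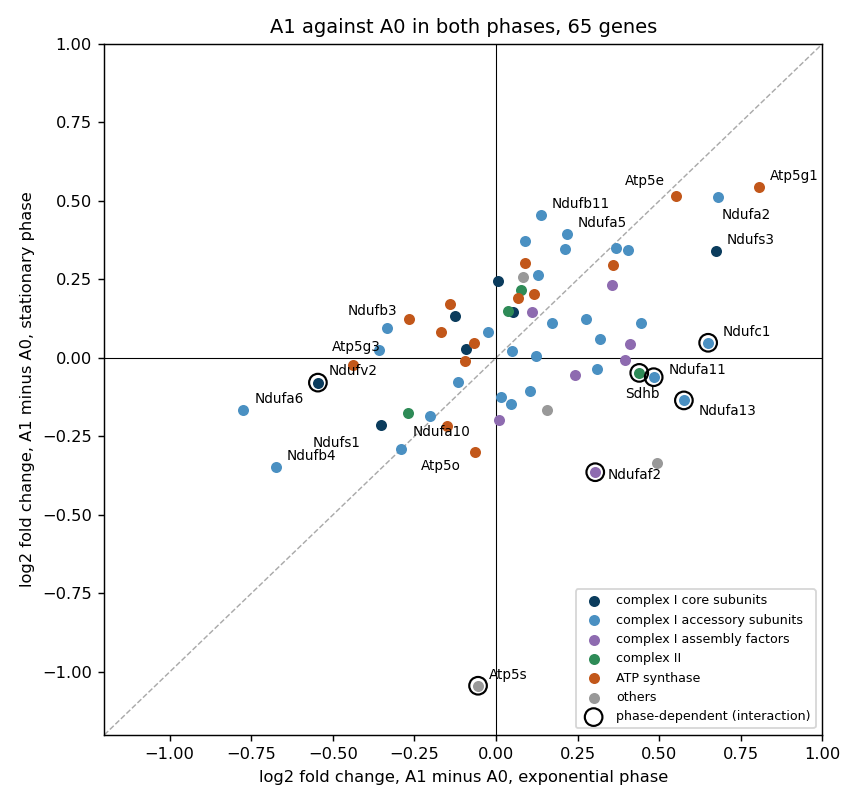
Log2 fold change of A1 against A0 at exponential phase (x axis) and at stationary phase (y axis) for the 65 genes, coloured by complex, with the dashed line marking equal values. Black rings mark the 7 genes whose difference between the phases passed adjusted p under 0.05 (edgeR interaction). Atp5g1 lies at 0.81 and 0.54, and Atp5s at -1.04 on the y axis.

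Whether the phase effect itself differed between A1 and A0 was tested with the interaction of line and phase. It was called for 7 of the 65 genes (1 positive and 6 negative, edgeR), against 8.94% of all tested genes, 5.04% positive and 3.9% negative, and 14.2% among genes with at least 1 CPM. The positive gene was Ndufv2 (0.47 ± 0.14, adjusted p = 0.04), whose A0 cultures went from 438 to 619 CPM down to 341 to 408 CPM while A1 stayed between 328 and 386 CPM. The negative genes were Atp5s (-0.99 ± 0.27, adjusted p = 0.021), Ndufa13 (-0.71 ± 0.22, adjusted p = 0.041), Ndufaf2 (-0.67 ± 0.16, adjusted p = 0.0092), Ndufc1 (-0.60 ± 0.17, adjusted p = 0.024), Ndufa11 (-0.54 ± 0.14, adjusted p = 0.016) and Sdhb, all by edgeR. Ndufa13, also known as the cell death regulator Grim19, was at 11.8 to 19.8 CPM and 18.3 to 21.4 CPM in A0 and at 19.6 to 26.5 CPM and 16.9 to 20.05 CPM in A1. Ndufa11, of the membrane arm, was at 30.3 to 35.4 CPM and 39.6 to 48.9 CPM in A0 and at 43.5 to 49.0 CPM and 41.5 to 45.9 CPM in A1. In each of these negative genes the mean of A0 was higher at stationary phase, and none of them rose past the threshold in A1. The calls of Ndufv2 and Ndufa13 were lost under 11 and 10 of 20 alternatives (0.41 to 0.51 and -0.77 to -0.59), mostly on leaving out a single culture. Without A1 exponential culture 3 or A1 stationary culture 2 the calls of Atp5s (-0.94 and -0.82), Ndufc1 (-0.58 and -0.63) and Ndufa11 (-0.50 and -0.51) were lost, and 2 of the negative genes were left called. Without A0 exponential culture 4 the count rose from 7 to 13, 7 positive and 6 negative, and the share of all tested genes from 8.94% to 12.8%.

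**Figure D4:**
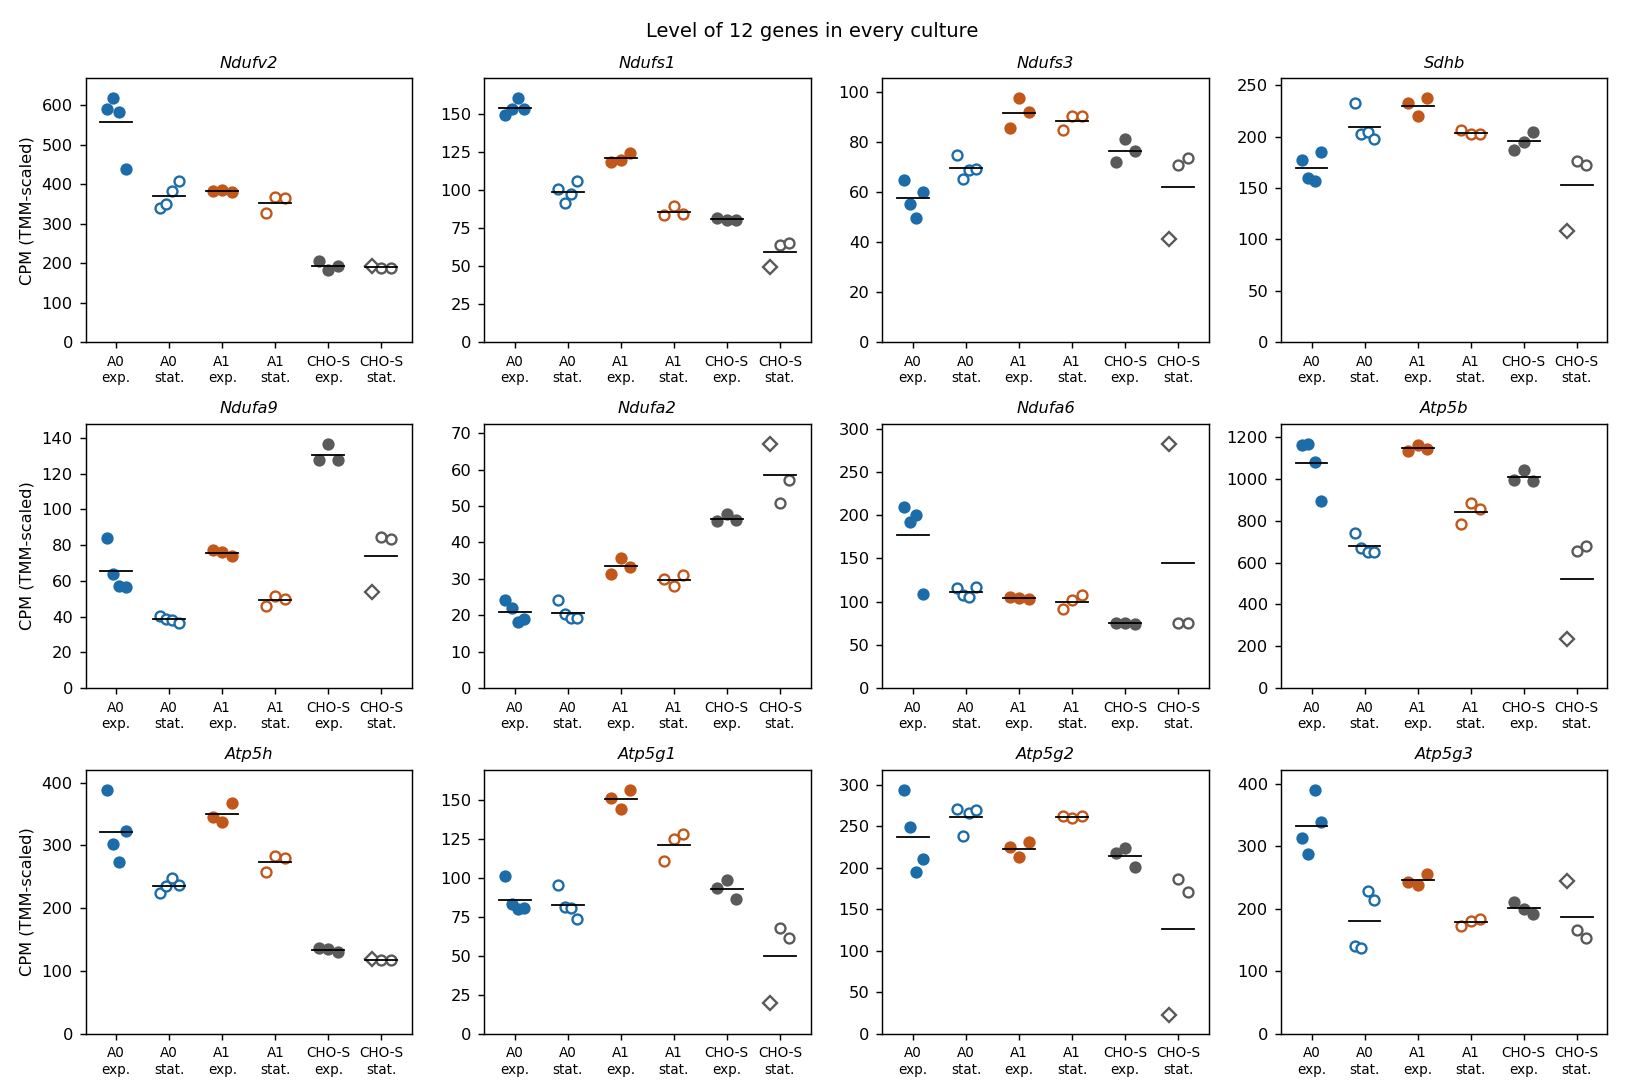
TMM-scaled CPM (y axis) of 12 genes in each of the 20 cultures, by line and phase (x axis), with filled points for exponential and open points for stationary cultures, the bar for the group mean and the diamond for CHO-S stationary culture 1. Atp5g1 lies at 144 to 157 CPM in exponential A1 against 79.8 to 101 CPM in A0, and in Ndufa6 A0 exponential culture 4 (109 CPM) and CHO-S stationary culture 1 (283 CPM) lie apart from their groups.

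The antibody-producing lines were compared with CHO-S to set their levels against a non-producing CHO line. Both comparisons use the same CHO-S cultures, so their values stand side by side and are not independent. At exponential phase 18 genes were higher and 16 lower in A0 than in CHO-S, against 49.5% of all tested genes called (27.6% higher, 21.9% lower) and 64.9% among genes with at least 1 CPM, beside 52.3% of the 65. The median log2 fold change was 0.08 for the 65 genes, 0.14 for all tested genes and 0.05 for tested genes with at least 1 CPM. In A1 30 genes were higher and 15 lower, against 57.2% of all tested genes called (30% higher, 27.1% lower) and 73% among genes with at least 1 CPM, beside 69.2% of the 65. At stationary phase, 11 genes were higher and 15 lower in A0, against 40% of all tested genes called (20.7% higher, 19.3% lower) and 49.2% among genes with at least 1 CPM. Without CHO-S culture 1 there were 19 higher and 22 lower, against 51.8% of all tested genes (28% higher, 23.8% lower). In A1 9 were higher and 8 lower, against 34.8% (18.2% higher, 16.6% lower) and 42.3% among genes with at least 1 CPM. Without CHO-S culture 1, 27 were higher and 20 lower, against 57.4% (29.9% higher, 27.5% lower).

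At exponential phase the complex I core stood above CHO-S in most members. There 5 of 7 core genes were higher and 1 lower in A0, and 6 were higher and none lower in A1. At that phase 27.6% of all tested genes were higher and 21.9% lower in A0, and 30% and 27.1% in A1. Among genes with at least 1 CPM 64.9% and 73% were called. At stationary phase with all CHO-S cultures 3 of 7 were higher in A0 and 2 in A1, and none was lower. Without CHO-S culture 1, 4 were higher and 1 lower in A0, and 6 higher and 1 lower in A1. The shares of all tested genes that were higher were 20.7% and 18.2% with that culture and 28% and 29.9% without it. Ndufv2 was at 206, 184 and 192 CPM in exponential CHO-S cultures, against 438 to 619 CPM in A0 and 381 to 386 CPM in A1. Its log2 fold change over CHO-S was 1.54 ± 0.12 in A0 (adjusted p = 7.7e-08, edgeR) and 0.97 ± 0.05 in A1 (adjusted p = 1e-14, edgeR). At stationary phase CHO-S was at 188 to 193 CPM, culture 1 included, and the values were 0.95 ± 0.14 (adjusted p = 0.00033, edgeR) and 0.88 ± 0.14 (adjusted p = 0.0017, edgeR), or 0.99 and 0.89 without culture 1. Ndufs1 was at 80.04 to 81.7 CPM in exponential CHO-S cultures and was higher by 0.94 ± 0.08 in A0 (adjusted p = 1.8e-07, edgeR) and 0.58 ± 0.05 in A1 (adjusted p = 5e-10, edgeR). Ndufs8, Ndufs7 and Ndufv1 were higher by 0.65, 0.61 and 0.35 in A0 and by 0.51, 0.50 and 0.38 in A1 (edgeR, adjusted p from 2.7e-09 to 0.0046). Ndufs3 was at 72.2 to 81.1 CPM in exponential CHO-S cultures, between the A0 and A1 ranges. It was lower in A0 by 0.40 ± 0.10 on the log2 scale (adjusted p = 0.0038, edgeR) and higher in A1 by 0.26 ± 0.06 (adjusted p = 0.00056, edgeR).

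In complex II, Sdha was at 361, 374 and 383 CPM in exponential CHO-S cultures, against 536 to 697 CPM in A0 and 514 to 527 CPM in A1. It was higher by 0.77 ± 0.10 (adjusted p = 1.5e-05, edgeR) and 0.48 ± 0.04 (adjusted p = 4.1e-10, edgeR), and Sdhd was higher by 0.40 ± 0.09 (adjusted p = 0.0019, edgeR) and 0.42 ± 0.04 (adjusted p = 7.4e-09, edgeR). Sdhc was lower than CHO-S in A1 by 0.15 ± 0.05 on the log2 scale (adjusted p = 0.0087, edgeR), a call lost without CHO-S culture 1 (-0.11), and in A0 the exponential ranges overlapped.

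ATP synthase was split. At exponential phase 2 of its 14 genes were higher and 4 lower in A0, and 4 higher and 5 lower in A1. Over all tested genes 27.6% were higher and 21.9% lower in A0, and 30% and 27.1% in A1. Of the 14 genes 42.9% and 64.3% were called, below the 64.9% and 73% of genes with at least 1 CPM. Atp5h, of the peripheral stalk, was at 137, 135 and 130 CPM in exponential CHO-S cultures, against 274 to 389 CPM in A0 and 337 to 367 CPM in A1. At stationary phase it was at 119, 118 and 118 CPM in CHO-S, against 224 to 248 CPM and 258 to 283 CPM. No culture of either line came near CHO-S, and the log2 fold changes were 1.28 ± 0.11 in A0 (adjusted p = 3.2e-07, edgeR) and 1.38 ± 0.05 in A1 (adjusted p = 2.5e-17, edgeR) at exponential phase. At stationary phase they were 0.98 ± 0.13 (adjusted p = 0.00022, edgeR) and 1.19 ± 0.14 (adjusted p = 0.00037, edgeR), or 1.02 and 1.19 without culture 1. Atp5a1 lay the other way, at 680, 687 and 668 CPM in exponential CHO-S cultures, 384 to 399 CPM in A0 and 486 to 528 CPM in A1. It was lower by 0.79 ± 0.08 (adjusted p = 7.6e-07, edgeR) and 0.44 ± 0.04 on the log2 scale (adjusted p = 2.3e-09, edgeR). Its partner in the catalytic head, Atp5b, overlapped between A0 and CHO-S and was 0.18 ± 0.04 higher in A1 (adjusted p = 0.00038, edgeR). Atp5f1 was lower in A1 by 0.59 ± 0.04 (adjusted p = 1.5e-11, edgeR) at exponential phase, and by 1.15 ± 0.14 in A0 (adjusted p = 9.9e-05, edgeR) and 0.95 ± 0.15 in A1 (adjusted p = 0.0016, edgeR) at stationary phase, or by 1.03 and 0.86 without CHO-S culture 1. At exponential phase Atp5f1 was at 183 to 311 CPM in A0 and 247 to 251 CPM in A1, both below the 365 to 382 CPM of CHO-S. Atp5g1 was higher in A1 than in CHO-S, at 144 to 157 CPM against 86.8 to 98.5 CPM, by 0.69 ± 0.05 (adjusted p = 8.7e-11, edgeR), and A0 overlapped with CHO-S.

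Among accessory subunits at exponential phase, Ndufb3, Ndufa6 and Ndufa10 were higher in A0 by 1.27 ± 0.11, 1.26 ± 0.18 and 1.06 ± 0.10 (edgeR, adjusted p = 2.5e-07, 3.1e-05 and 4e-07). Ndufb10, Ndufb3 and Ndufa10 were higher in A1 by 0.95 ± 0.05, 0.92 ± 0.05 and 0.75 ± 0.04 (edgeR, adjusted p = 3e-14, 4.1e-13 and 3.6e-13). Ndufa6 also lay above CHO-S in A1, at 103 to 105 CPM against 74.0 to 75.5 CPM. Ndufb10 also lay above CHO-S in A0, at 114 to 185 CPM against 86.7 to 91.6 CPM. Ndufa2 was at 45.8 to 47.8 CPM in exponential CHO-S cultures, above the 18.1 to 24.1 CPM of A0 and the 31.4 to 35.6 CPM of A1. It was lower by 1.15 ± 0.11 in A0 (adjusted p = 6.9e-07, edgeR) and by 0.48 ± 0.07 in A1 on the log2 scale (adjusted p = 1.2e-06, edgeR). Ndufa9 was at 128 to 137 CPM in CHO-S and was lower by 0.99 ± 0.12 in A0 (adjusted p = 1.1e-05, edgeR) and by 0.79 ± 0.05 in A1 (adjusted p = 3.1e-12, edgeR). Ndufa13 and Ndufc1 were lower in A0 by 0.92 ± 0.16 and 0.88 ± 0.12 (adjusted p = 0.0002 and 3.2e-05, edgeR), and Ndufa3 was lower in A1 by 0.51 ± 0.07 (adjusted p = 7.2e-07, edgeR). The A1 cultures also lay below CHO-S for Ndufa13, at 19.6 to 26.5 CPM against 28.0 to 31.6 CPM. The same held for Ndufc1, at 21.2 to 22.4 CPM against 23.9 to 26.8 CPM. For Ndufa3 A0 overlapped with CHO-S.

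**Figure D5:**
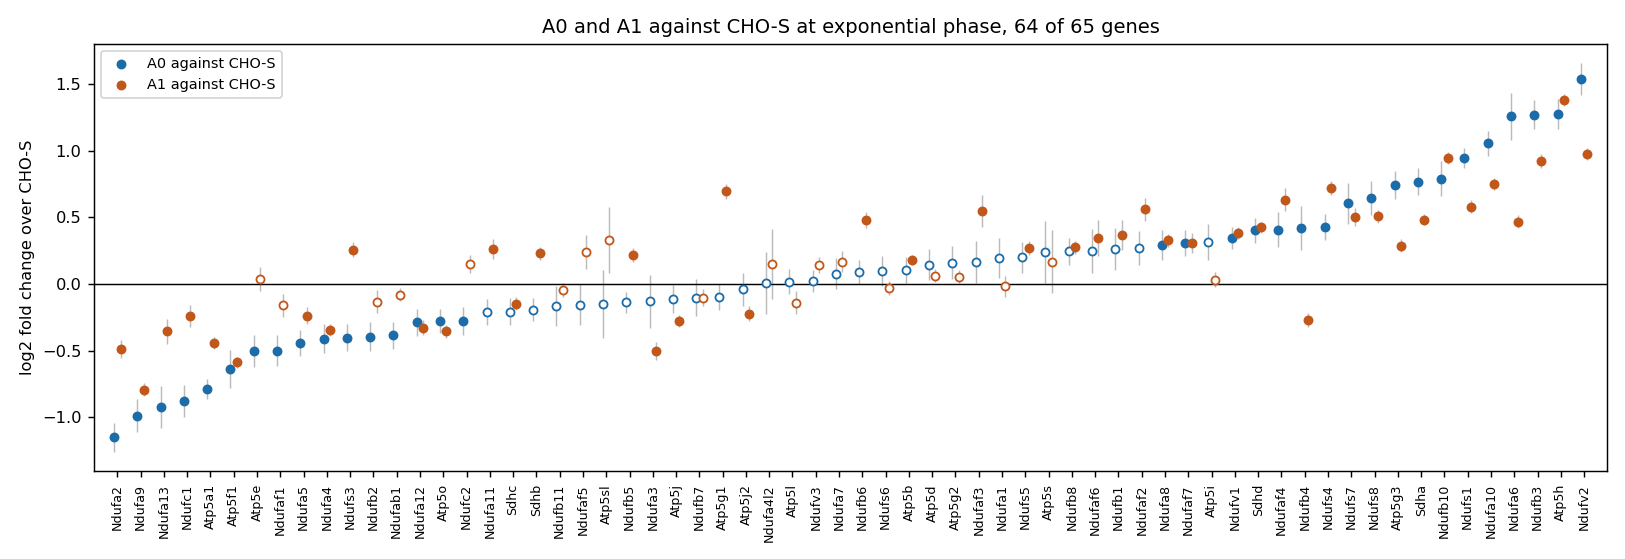
Log2 fold change over CHO-S at exponential phase (y axis) of 64 of the 65 genes, ordered by the A0 value (x axis), for A0 and A1 with standard errors. Filled points passed adjusted p under 0.05 (edgeR): Ndufv2 lies at 1.54 in A0 and 0.97 in A1, Atp5h at 1.28 and 1.38, and Ndufa2 at -1.15 and -0.48. Both lines share the same 3 CHO-S cultures.

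The interaction of phase with A0 against CHO-S was called for 5 genes, all negative (edgeR), against 10.3% of all tested genes (3.78% positive, 6.57% negative) and 16% among genes with at least 1 CPM. These were Ndufa6 (-1.50 ± 0.45, adjusted p = 0.037), Ndufa3 (-1.05 ± 0.29, adjusted p = 0.026), Ndufb4 (-0.90 ± 0.27, adjusted p = 0.041), Atp5i (-0.90 ± 0.21, adjusted p = 0.0076) and Ndufb3 (-0.72 ± 0.20, adjusted p = 0.024). CHO-S stationary culture 1 had 283 CPM of Ndufa6 against 75.1 and 74.8 CPM in the others and 249 CPM of Ndufb4 against 146 and 140 CPM. Without it these 2 calls were lost (-0.64 and -0.58), 6 genes were negative and 6 positive, against 17.2% of all tested genes called (8.43% positive, 8.75% negative). The calls of Ndufa3 and Ndufb3 held without it, but were lost without any exponential CHO-S culture (-1.08 to -1.03 and -0.74 to -0.70). The interaction of phase with A1 against CHO-S was called for 0 of 65 genes by edgeR (7.6% of all tested genes, 3.83% positive and 3.77% negative, and 11.4% among genes with at least 1 CPM), 7 had an unadjusted p under 0.05, and DESeq2 called 8. Without CHO-S culture 1, 2 were positive and 13 negative, against 25.4% of all tested genes (13% positive, 12.4% negative).

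Other nuclear genes of mitochondria give the surroundings of these changes. Of 19 tested genes of mitochondrial mass and import (import channels, carriers, chaperones, prohibitins and fusion proteins), 16 fell and none rose from exponential to stationary phase in A0, with a median log2 fold change of -0.41, and 17 fell and 1 rose in A1, with a median of -0.37. The shares of all tested genes that fell were 20.1% and 17.8%, and those that rose were 17.7% and 15.6%. Among genes with at least 1 CPM 29.5% and 25.3% fell. Of 18 regulators of mitochondrial biogenesis (transcription factors and coactivators), 9 fell and 1 rose in A0 and 10 fell and none rose in A1, with medians of -0.34 and -0.20. Of 19 assembly factors of the respiratory chain, 7 rose and 3 fell in A0 and 2 rose and 4 fell in A1. Of 6 tested other subunits and electron carriers, 1 rose and 3 fell in A0 and 1 rose and 1 fell in A1. In CHO-S with all cultures, 2 mass and import genes fell and 1 rose, with a median of -0.38. There 2 of 17 tested regulators fell and none rose, with a median of -0.27. Of 18 tested assembly factors 5 fell and 1 rose in CHO-S. The CHO-S shares of all tested genes were 6.48% that fell and 6.81% that rose. Between A1 and A0 at exponential phase, 2 of the mass and import genes were higher in A1 and 6 lower, 1 of the regulators was higher and 5 lower, 4 of the assembly factors were higher and 2 lower, and none of the other subunits and carriers was higher and 3 were lower, beside 12% of all tested genes that were higher and 13.8% that were lower. At stationary phase the counts were 5 and 7, 4 and 4, 2 and 6, and 1 and 2, beside 16% and 17.7%.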

How the data were processed

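RNA-seq was done on 24 libraries from 20 cultures. The authors aligned reads to the C_griseus_v1.0 genome with STAR (v2.5.4b) and counted them per gene with HTSeq-count (v0.7.2), and deposited raw read counts. The kit keeps strand, but the strand setting of the counting is not given in the sources used here. HTSeq leaves out reads that map to several places by default, so genes with near-identical copies can lose reads. Whether this touched the c subunit genes, which encode the same protein, was not tested.

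The 5 summary lines of the table were left out, and 0 columns were unused. Libraries of one A0 exponential culture were summed. A gene was tested where 2 or more cultures had 1 or more counts. Testing used edgeR (v4.0.16, R v4.3.3) with TMM factors. The quasi-likelihood p-values were two-sided and were adjusted by Benjamini and Hochberg's method over every gene tested, with calls made under 0.05. Each of 12 comparisons (9 between groups, 3 interactions of line and phase) was fitted on its own cultures. The SE is the absolute log2 fold change divided by the square root of F. Levels are CPM with TMM factors over all 20 cultures. Precision follows depth, 1038026 to 14652646 counts on genes per library, and covers counting and culture spread. The fits were tested on simulated data.

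Named were the core or catalytic subunits, sets of paralogues and, per comparison, the 5 largest rises and 5 largest falls among called genes whose cultures did not overlap. Genes outside this rule, such as those shared between comparisons and Ndufa13 or Ndufb4 levels beside an interaction, were named after their values were seen. Results for some genes that the rule names are not reported here. The genes and lists were chosen with earlier results of these data known. Alternatives were DESeq2 (v1.42.0), RLE factors, filterByExpr, 1 fit over all 6 groups, a replicate block, subsets of A0 cultures or libraries, and each culture left out. Fits without CHO-S stationary culture 1 combined with DESeq2 or with all 6 groups were added after the data were seen. Same-numbered cultures deviated together in A0 between phases (r 0.18 to 0.39 in 4 pairs). In 3 of the 4 pairs r was highest for the own number, and culture 4 had its highest r with number 3. The numbers may thus pair the A0 cultures, but this was not shown for all of them. The main fits did not use this pairing, and the replicate block was the alternative that did. In the other 8 comparisons between groups not every pair passed 0.1. Tables and figures used Python (v3.11.15), pandas (v2.3.3), numpy (v2.4.6) and matplotlib (v3.10.9).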

Additional observations from a re-analysis of the deposited data

Results flagged for a closer look

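In 4 of 90 sets of 4 A0 cultures, 1 culture lay apart from the others by Dixon's ratio of its gap to the range, and chance gives about 1 in 20 such sets. At exponential phase these were Atp5g1 in culture 1, on the high side (ratio 0.844), and Ndufa6 in culture 4, on the low side (0.8294). At stationary phase they were Atp5g2 in culture 2, on the low side (0.857), and Ndufc1 in culture 1, on the high side (0.865).

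The change from exponential to stationary phase differed between A1 and A0, by the test of the interaction, for Ndufa11 (-0.54), Ndufa13 (-0.71), Ndufc1 (-0.60), Ndufaf2 (-0.67), Sdhb (-0.49), Atp5s (-0.99) and Ndufv2 (0.47) on the log2 scale. It differed between A0 and CHO-S for Atp5i (-0.90), Ndufa3 (-1.05), Ndufa6 (-1.50), Ndufb3 (-0.72) and Ndufb4 (-0.90), with edgeR and all CHO-S cultures. The last group includes Ndufa6 and Ndufb4, whose calls were lost without CHO-S stationary culture 1 (-0.64 and -0.58).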

How the results depend on the processing

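Depth limits CHO-S stationary culture 1 most, with a median of 59 counts over the 65 genes. Its share of reads in no annotated gene was also the highest, at 32.8%, and what set this culture apart was not tested. No called value of a named gene changed sign under the alternatives, but the split of calls between A1 and A0 at exponential phase turned with A0 cultures 1 and 2 alone (36 called, 16 higher and 20 lower, 37.6% of all tested genes called). In what follows the share of all tested genes called by the same fit stands in brackets after each count. In 1 fit over all 6 groups, 11 genes were called between A1 and A0 at stationary phase (24.1%), 24 and 35 between A1 and CHO-S at exponential and stationary phase (35.3% and 38.8%), and 10 and 12 between phases in A1 and CHO-S (11.6% and 19.2%). That fit called 0, 11 and 1 in the interactions of A1 with A0, A0 with CHO-S and A1 with CHO-S (4.56%, 14.7% and 5.49%). Without CHO-S stationary culture 1 it called 43 and 38 for A0 and A1 against CHO-S at stationary phase (47.6% and 42.3%), 17 and 16 between phases in A1 and CHO-S (19.6% and 24.6%), and 19 and 2 in the interactions of A0 and A1 with CHO-S (19.4% and 10.8%). DESeq2 called 9 between phases in CHO-S (15.7%) and 10 and 8 in those interactions (14.4% and 10.2%). Without that culture it called 42 and 44 for A0 and A1 against CHO-S at stationary phase (46.9% and 47.2%), 25 between CHO-S phases (36.5%), and 16 and 13 in those interactions (18.7% and 20.9%). With filterByExpr the interactions of A0 and A1 with CHO-S gave 8 and 4 (17.6% and 12.7%). A0 cultures 3 and 4 alone gave 18 between the A0 phases (27.8%). With the replicate number as a block, 11 were called between A0 and CHO-S at stationary phase (26.5%), 0 between phases in CHO-S (2.02%), and 13 and 8 in the interactions of A1 with A0 and A0 with CHO-S (16.4% and 11.2%). Outside the A0 phases these samples share only a number. The cause of these shifts was not tested.

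Leaving out each culture in turn gave 14 to 28 genes (16% to 30.8%) between A1 and A0 at exponential and 18 to 24 (25.6% to 34.1%) at stationary phase. Against CHO-S it gave 28 to 39 (42% to 52.4%) and 17 to 41 (29.4% to 51.8%) for A0, and 41 to 47 (53.7% to 57%) and 7 to 47 (22.8% to 57.4%) for A1. Between phases it gave 28 to 40 in A0 (33.1% to 38.7%), 23 to 26 in A1 (28.3% to 30.7%) and 0 to 32 in CHO-S (0% to 47.7%). In the interactions it gave 2 to 13 for A1 with A0 (4.81% to 12.8%), 1 to 12 for A0 with CHO-S (6.61% to 17.2%) and 0 to 15 for A1 with CHO-S (4.01% to 25.4%). The highest counts in every comparison that uses CHO-S stationary culture 1 came without it. The lowest came without A1 exponential culture 3 for A1 against A0 at exponential phase, without CHO-S culture 2 for A0 and without A1 culture 1 or 2 for A1 against CHO-S at stationary phase, and without any exponential CHO-S culture or A0 stationary culture 2 for the interaction of A0 with CHO-S.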
